A study of Mus musculus with 24 samples.

Results

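Dlk1, Meg3, Rtl1, Rian, Mirg and Dio3 are the long RNAs of the imprinted Dlk1-Dio3 domain on mouse chromosome 12, and they were taken by their gene identifiers as 6 of the 55401 genes counted in the mRNA libraries. They were measured in gastrocnemius, a calf muscle, of 12 male C57BL6 mice. The 6 young mice were obtained at 4 weeks and injured at 5 weeks of age, and the 6 adult mice were obtained at 10 weeks and injured at 11 weeks. In either age 3 mice were given saline under the skin, scalded over 25% of their body surface and resuscitated with lactated Ringer's solution. The 3 sham mice had anaesthetics and analgesics alike but neither scald nor resuscitation, and whether they had the saline is not stated outright. Muscle was taken 24 h later, so there were 4 groups of 3 mice (sham and burn, young and adult), and each mouse gave 1 poly-A mRNA library and 1 small RNA library. The question of the design was how age and burn change the muscle transcriptome, and burn and resuscitation fluid cannot be told apart in it.

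The domain is expressed by parent of origin. Dlk1, Rtl1 and Dio3 are protein-coding and are expressed chiefly from the paternal copy, whereas Meg3, Rian and Mirg are noncoding and come from the maternal copy, where they lie one behind the other on the same strand. A differentially methylated region between Dlk1 and Meg3 controls the choice. Rian carries box C/D snoRNAs, and Mirg and the stretch before it carry one of the largest miRNA clusters of the mouse genome. The domain is known in muscle from the callipyge sheep, whose hindquarter muscles enlarge when genes of the paternal copy are overexpressed.

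Positions are those of Gencode M21 on GRCm38, and the members spanned 828.3 kb from the start of Dlk1 to the end of Dio3. Dlk1 (ENSMUSG00000040856.17), a membrane protein with EGF-like repeats that acts as a noncanonical Notch ligand, lies at chr12:109452823-109463336 on the plus strand. Meg3 (ENSMUSG00000021268.17), a nuclear long noncoding RNA, lies at chr12:109541001-109571726 on the plus strand. Rtl1 (ENSMUSG00000085925.3), a protein derived from a retrotransposon, lies at chr12:109589193-109600330 on the minus strand, and 8.40% of its exonic bases are shared with 7 miRNA genes, nearly all of which run antisense to it. Rian (ENSMUSG00000097451.11) lies at chr12:109603940-109661716 and Mirg (ENSMUSG00000097391.8) at chr12:109729764-109749460, both on the plus strand. Dio3 (ENSMUSG00000075707.5), the type 3 deiodinase that inactivates thyroid hormone, lies at chr12:110279068-110281097 on the plus strand, 529.61 kb beyond Mirg. No source used here states which strand was counted, so reads of Rtl1 and of its antisense transcripts cannot be told apart.

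RefSeq promoter windows for GRCm38.p6, each of 250 bases before and 50 after an annotated start, were held for 5 of the 6 members and not for Rtl1. They were searched on both strands for the TATA box TATAAA, the cAMP response element TGACGTCA, the E-box CAGCTG and the CCAAT box. The stretches upstream of the RefSeq start are shown for Dlk1 and Meg3, which head the paternal and the maternal transcripts, and for Dio3, which did not follow them in the counts. They lie on the plus strand at chr12:109452573-109452822 for Dlk1, chr12:109540746-109540995 for Meg3 and chr12:110278980-110279229 for Dio3, and capitals mark the motifs found.
Dlk1 upstream: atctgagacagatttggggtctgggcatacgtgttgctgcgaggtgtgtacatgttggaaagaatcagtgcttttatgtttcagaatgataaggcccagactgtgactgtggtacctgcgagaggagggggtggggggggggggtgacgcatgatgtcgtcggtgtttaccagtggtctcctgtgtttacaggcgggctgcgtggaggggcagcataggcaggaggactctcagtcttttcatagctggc
Meg3 upstream: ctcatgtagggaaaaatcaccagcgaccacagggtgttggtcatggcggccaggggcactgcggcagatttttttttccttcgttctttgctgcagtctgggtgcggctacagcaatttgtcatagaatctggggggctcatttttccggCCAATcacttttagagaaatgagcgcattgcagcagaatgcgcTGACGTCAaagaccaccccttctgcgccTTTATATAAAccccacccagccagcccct
Dio3 upstream: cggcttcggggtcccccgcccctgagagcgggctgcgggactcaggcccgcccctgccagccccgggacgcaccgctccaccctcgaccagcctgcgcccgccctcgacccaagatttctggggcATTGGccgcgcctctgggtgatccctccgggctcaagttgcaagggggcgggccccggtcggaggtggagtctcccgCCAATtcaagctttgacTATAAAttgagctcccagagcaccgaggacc

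Meg3 held overlapping TATAAA matches, 1 on either strand, starting 29 and 25 bases before its start, together with TGACGTCA at 57 and CCAAT at 100 bases before it. Dio3 held TATAAA at 31 bases and CCAAT at 125 and 48 bases before its RefSeq start. That start and these motifs lie inside Dio3 as Gencode draws it, so they are upstream by RefSeq only. The windows of Dlk1 and Rian and a second Meg3 window held none of these letters, and that of Mirg, which lies inside the gene as Gencode draws it, held 1 CCAAT. Of all 32851 RefSeq windows, 13.6% held TATAAA, 1.79% TGACGTCA, 16.3% CAGCTG and 37.4% CCAAT. The window of Dio3 had 25 CpG dinucleotides, that of Meg3 13 and that of Dlk1 9, against a median of 7 over all windows.

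Mature miRNAs are shown for the most abundant hairpin in each stretch of the domain that held tested entries, and for miR-379 and miR-411, abundant neighbours whose 3′ arms share a seed. Capitals mark the seed, bases 2 to 8, and all lie on the plus strand of GRCm38.p6 in RefSeq. The counts are per hairpin and do not separate the arms. Of 111 mature arms of the domain, which had 103 different seeds, only 8 seeds occurred in more than 1 arm.
miR-337-5p: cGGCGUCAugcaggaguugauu
miR-337-3p: uCAGCUCCuauaugaugccuuu
miR-127-5p: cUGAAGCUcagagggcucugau
miR-127-3p: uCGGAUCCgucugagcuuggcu
miR-341-5p: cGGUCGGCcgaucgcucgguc
miR-341-3p: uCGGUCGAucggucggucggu
miR-381-5p: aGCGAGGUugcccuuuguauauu
miR-381-3p: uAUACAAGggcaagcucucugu
miR-379-3p: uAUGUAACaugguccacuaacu
miR-411-3p: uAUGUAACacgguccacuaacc

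The mRNA libraries held between 4392605 and 5688512 counts, and the small RNA libraries between 1704531 and 3149396. Young burn replicate 2 stood apart in mRNA: its median correlation with the other libraries was 0.929, against 0.957 to 0.970 for the others, and its TMM factor of 1.19 was the highest. The legend of a figure in the study leaves 1 young burn animal out, so mRNA results are given with all 12 libraries and with the 11 that remain without this one. Its small RNA library did not stand apart, with a median correlation of 0.960 in a range of 0.953 to 0.962. The RNA quality report of the study gave no RNA integrity number for any sample. Its highest ratios of large to small ribosomal RNA were those of adult sham mice, and a part of RNA quality in the group differences was not tested. The 8 muscle fibre markers were tested in all libraries and summed to between 80758 and 160910 CPM per library, where CPM is the count scaled to a common, TMM-normalized library size. All values are from whole tissue, in which fewer cells of a type and less RNA per cell cannot be told apart, and the p-values measure the spread between single mice of a group.

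**Figure D1:**
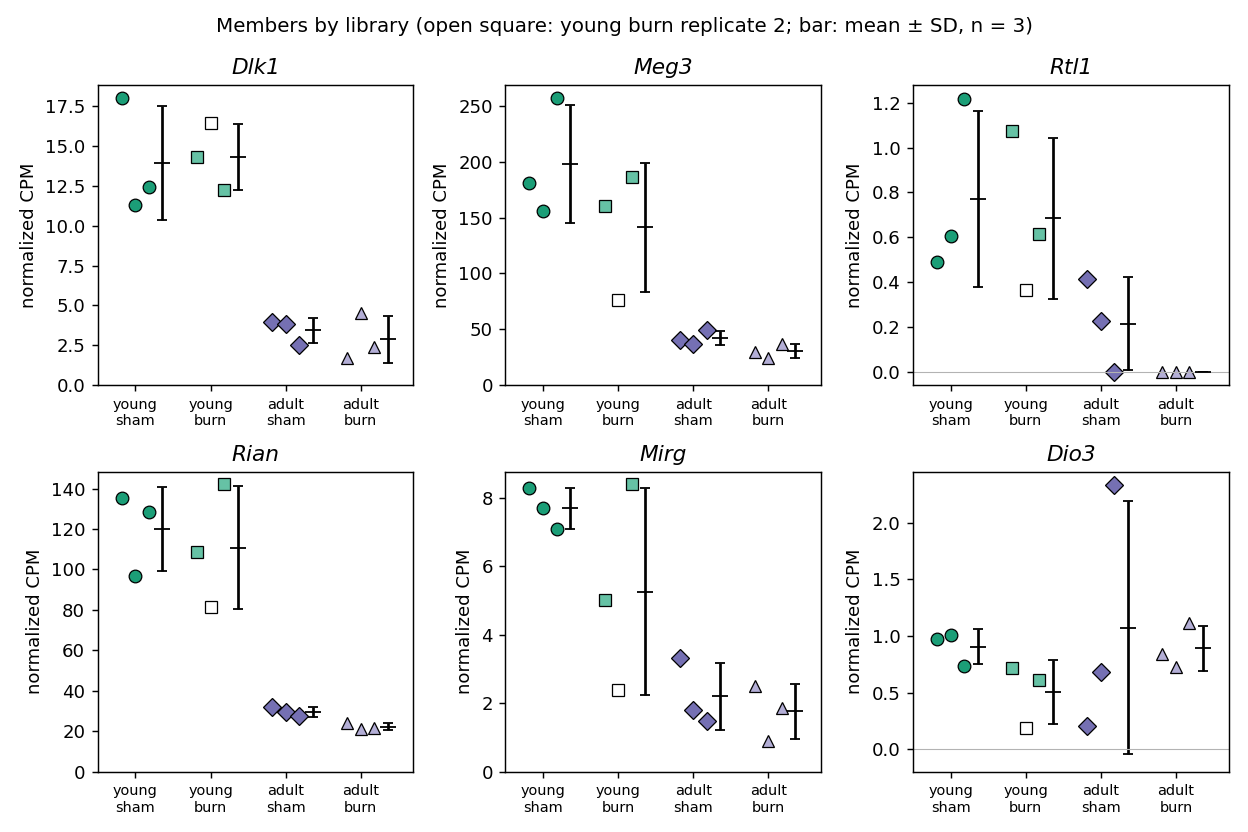
Normalized CPM (vertical axes, starting near 0) of each member in the 12 mRNA libraries, 3 per group; bars beside the points give the mean ± SD, and the open square is young burn replicate 2. For Dlk1, Meg3 and Rian the lowest young library lay above the highest adult library, at 11.3 against 4.52, 76.1 against 49.4 and 81.4 against 32.3 CPM, whereas the Dio3 ranges overlapped.

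Dlk1, Meg3, Rian and Mirg were higher in young than in adult muscle, with and without a burn, by 1.54 to 2.32 on the log2 scale. All 4 members that passed the filter on low counts were called higher in young sham than in adult sham, where 1.92% of the 12408 genes tested were, and all 4 were called higher in young burn than in adult burn, where 5.98% were. Without young burn replicate 2 these shares of the 12651 genes tested were 5.27% and 11.2%, and all 4 members were again called. A call is an adjusted p under 0.05 in edgeR's quasi-likelihood test with Benjamini-Hochberg adjustment over all genes tested. Rtl1 and Dio3 had too few counts for that test and are treated separately. Mirg passed the filter only through the young libraries, so its direction was partly set by it.

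Dlk1 was measured at 18.0, 11.3 and 12.4 CPM in young sham, at 14.3, 16.4 and 12.3 CPM in young burn, at 3.93, 3.85 and 2.55 CPM in adult sham and at 1.68, 4.52 and 2.41 CPM in adult burn. Every young library lay above every adult library. Group means were 13.9 ± 3.58 CPM (SD, n = 3) in young sham and 3.44 ± 0.778 in adult sham. The log2 fold change was 2.005 ± 0.31 (SE) in young sham against adult sham, or 4.01-fold, with an adjusted p of 0.00502 by edgeR. In young burn against adult burn it was 2.32 ± 0.30, with an adjusted p of 0.00104. The values were 1.99 and 2.22 on the log2 scale with 11 libraries. Young burn replicate 2, the lowest young library for Meg3, Rian and Mirg, was not the lowest for Dlk1. It stood at 16.4 CPM, below the 18.0 CPM of young sham replicate 1.

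Meg3, the most abundant member, was measured at 181, 156 and 257 CPM in young sham, at 161, 76.1 and 187 CPM in young burn, at 40.7, 36.9 and 49.4 CPM in adult sham and at 29.5, 24.4 and 36.8 CPM in adult burn. The lowest young value, in young burn replicate 2, was still above the highest adult value. The log2 fold change was 2.22 ± 0.29 in young sham against adult sham, or 4.67-fold, with an adjusted p of 0.00254 by edgeR, and 2.22 ± 0.30 in young burn against adult burn, with an adjusted p of 0.00105. With 11 libraries the same changes were 2.21 ± 0.19, with an adjusted p of 1.03e-05, and 2.53 ± 0.20, with an adjusted p of 4.78e-06.

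Rian, the snoRNA host, was measured at 135, 96.6 and 128 CPM in young sham, at 108, 81.4 and 142 CPM in young burn, at 32.3, 29.5 and 27.4 CPM in adult sham and at 24.3, 20.97 and 21.5 CPM in adult burn. Among adult mice the SD was 2.46 CPM in sham and 1.79 CPM in burn, and the groups of different age did not overlap. Its log2 fold change of 2.01 ± 0.19 between the sham groups, with an adjusted p of 0.000413 by edgeR, had rank 2 of 12408 genes when ordered by p. In young burn against adult burn the change was 2.31 ± 0.20 with an adjusted p of 6.9e-05, rank 3. In the 11 libraries it was 2.003 ± 0.15 and 2.49 ± 0.16.

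Mirg, which spans the second part of the miRNA cluster, was far less abundant. It was measured at 8.28, 7.70 and 7.07 CPM in young sham, at 5.02, 2.37 and 8.38 CPM in young burn, at 3.31, 1.81 and 1.48 CPM in adult sham and at 2.52, 0.904 and 1.86 CPM in adult burn. The sham groups did not overlap, but young burn replicate 2, with 13 counts, lay within the range of adult burn. The log2 fold change was 1.78 ± 0.44 in the sham groups, with an adjusted p of 0.0416 by edgeR, and 1.54 ± 0.45 in the burn groups, with an adjusted p of 0.0449. The Mirg calls were less firm than those of the other members: leaving out any 1 of the 6 libraries compared ended the call between the sham groups, with adjusted p up to 0.153, and leaving out any library but young burn replicate 2 ended it between the burn groups, with adjusted p up to 0.175. With 11 libraries the changes were 1.77 ± 0.35, adjusted p 0.00579, and 1.90 ± 0.38, adjusted p 0.00399.

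Among all 12408 genes, ordered by their log2 fold change between the sham groups, Meg3 had rank 20, Rian rank 30, Dlk1 rank 31 and Mirg rank 50. The median log2 fold change of all genes was 0.01. The age differences of Dlk1, Meg3 and Rian were called in each of the 13 settings tried for the sham groups and the 12 for the burn groups. Over these settings Dlk1 ranged from 1.78 to 2.14 in the sham groups, Meg3 from 1.99 to 2.37 and Rian from 1.86 to 2.15.

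**Figure D2:**
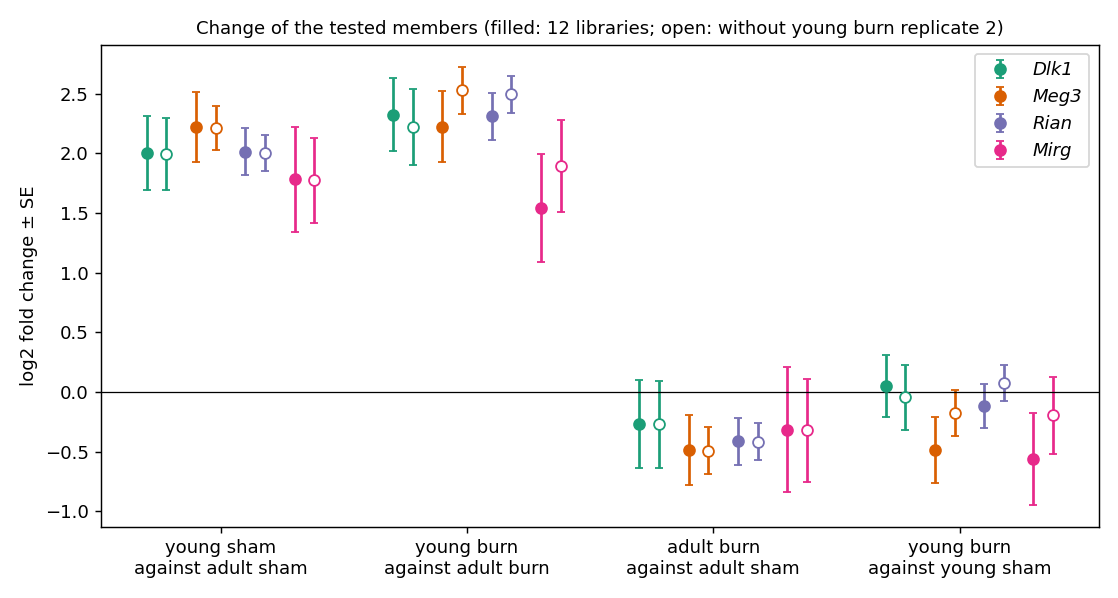
Log2 fold change ± SE (vertical axis) of the 4 tested members in the age comparisons and the burn comparisons, from edgeR; filled points use 12 libraries and open points 11, without young burn replicate 2. The age differences lay between 1.54 and 2.53, and the burn differences between -0.56 and 0.07.

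Rtl1 was barely detected. Young sham libraries held 2, 3 and 5 Rtl1 counts, young burn libraries 6, 2 and 3, adult sham libraries 2, 1 and 0, and adult burn libraries none. Pooled over age this was 21 counts in young against 3 in adult muscle, a ratio of 7.42 per unit of library size with an exact 95% interval of 2.22 to 38.9 that covers counting error only. In young burn against adult burn, 11 counts stood against 0, which with a floor of 3 counts over the group is at least 3.88-fold higher, and the exact 95% interval of that ratio begins at 2.66. In young sham against adult sham, 10 counts stood against 3, a ratio of 3.54 with an interval of 0.912 to 20.02. On log2(CPM + 0.5), a scale that understates the change of low genes, the 6 young libraries lay 1.02 above the 6 adult ones in the mean, with p = 0.00433 in an exact two-sided permutation test over the 924 ways to divide the libraries, in which the smallest possible p is 0.00216. The difference was 1.11 with the 11 libraries, with an exact p of 0.00433, the smallest possible with 11 libraries.

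Dio3, at the far end of the domain, did not show this pattern. Its counts were 4, 5 and 3 in young sham, 4, 1 and 3 in young burn, 1, 3 and 11 in adult sham and 5, 4 and 6 in adult burn. The groups overlapped, and the highest value, 2.33 CPM, came from adult sham replicate 3. Pooled over age, 20 young and 30 adult counts gave a ratio of 0.707. Its exact interval of 0.380 to 1.29 covers counting error only and not the spread between mice, and adult sham replicate 3 gave 11 of the 30 adult counts. In mean CPM the ages differed 4.48-fold for Dlk1, 4.67-fold for Meg3 and 4.44-fold for Rian. The mean difference on log2(CPM + 0.5) was -0.22 with an exact permutation p of 0.511, and without young burn replicate 2 it was -0.06 with an exact p of 0.816. Dio3os, the transcript that starts opposite to Dio3 on the minus strand, was the only other row of the domain to pass the filter. It held 47 young and 82 adult counts, and its log2 fold change was -0.75 with an adjusted p of 0.43 between the sham groups and -0.69 with an adjusted p of 0.327 between the burn groups.

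The burn itself was not followed by a called change of any member. Of the 4 members tested, edgeR called 0 in adult burn against adult sham, where it called 0.00806% of all genes, and 0 in young burn against young sham, where it called 0.0645%. With 11 libraries the shares were 0.909% and 0.664%, again with 0 members, and DESeq2 also called 0 members in either comparison. The number of all genes called in young burn against young sham moved with the fit, from 8 genes by edgeR to 440 by DESeq2 and 697 by edgeR without young burn replicate 1, while 0 members were called in each. In adult mice Meg3 was lower after burn by 0.49 ± 0.30 on the log2 scale (unadjusted p 0.121, adjusted p 0.763) and Rian by 0.41 ± 0.20 (unadjusted p 0.0575, adjusted p 0.72). Without young burn replicate 2, which is in neither group but adds to the common estimate of spread, these became 0.49 ± 0.19 (unadjusted p 0.0227, adjusted p 0.264) and 0.42 ± 0.16 (unadjusted p 0.019, adjusted p 0.247), so that 2 of the 4 members passed an unadjusted p under 0.05, as did 13.7% of all genes, and none the adjusted threshold. In young mice Meg3 changed by -0.49 ± 0.28 after burn with 12 libraries and by -0.18 ± 0.19 with 11, and Dlk1 by 0.05 ± 0.26 and -0.04 ± 0.27.

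The difference between the burn effects of young and adult mice was tested as an interaction. EdgeR called 0 of 4 members, and 0% of all 12408 genes, 893 of which had an unadjusted p under 0.05 while none of the members did. With 11 libraries it called 0.0949% of all genes and again 0 members, and DESeq2 called 0 members. The largest member value with 11 libraries was that of Rian, 0.49 ± 0.22 on the log2 scale, with an unadjusted p of 0.0387 and an adjusted p of 0.425.

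Divided by the joint length of all exons annotated for a gene in Gencode M21, the levels kept nearly the same order in both ages. This length takes all transcripts of a gene together, so the order is not one of single transcripts. In young muscle the mean was 9.38 CPM per kb of exon for Meg3, 6.33 for Rian, 2.50 for Dlk1, 0.887 for Mirg, 0.347 for Dio3 and 0.114 for Rtl1. In adult muscle it was 2.01 for Meg3, 1.42 for Rian, 0.558 for Dlk1, 0.484 for Dio3, 0.272 for Mirg and 0.0168 for Rtl1. Neighbours in these orders were compared within libraries by an exact two-sided permutation of signs over the 6 libraries of an age, for which the smallest p is 0.03125, with adjustment over the 10 pairs. Meg3 did not differ from Rian beyond the spread in young mice, where it was higher in 5 of 6 libraries (adjusted exact p 0.0781), and in adult mice neither did Dlk1 from Dio3 (3 of 6 libraries, adjusted exact p 0.719) nor Dio3 from Mirg (5 of 6, adjusted exact p 0.312). The other 7 pairs kept their order in 6 of 6 libraries, each with an adjusted exact p of 0.0446. The pairs and their order were taken from the means of these same libraries, and 6 of 6 always gives the smallest p. These p values therefore describe how steady the order was and are no independent test of it.

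The proportions between members within a library were also compared between the ages. Rian stood to Meg3 at between 0.499 and 1.07 counts per count in young libraries and between 0.554 and 0.859 in adult ones, with medians of 0.711 and 0.795. The highest ratio, 1.07, was that of young burn replicate 2, and without it the young range ended at 0.762. The age difference in the log2 ratio was -0.03 for Rian to Meg3, -0.47 for Mirg to Meg3 and 0.05 for Dlk1 to Meg3, and its exact permutation p, adjusted over the 3 ratios, was 0.892, 0.423 and 0.892. With 11 libraries these p values were 0.538, 0.538 and 0.576. The 3 ratios span members of both parental copies, and no difference between the ages passed the test for any of them.

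**Figure D3:**
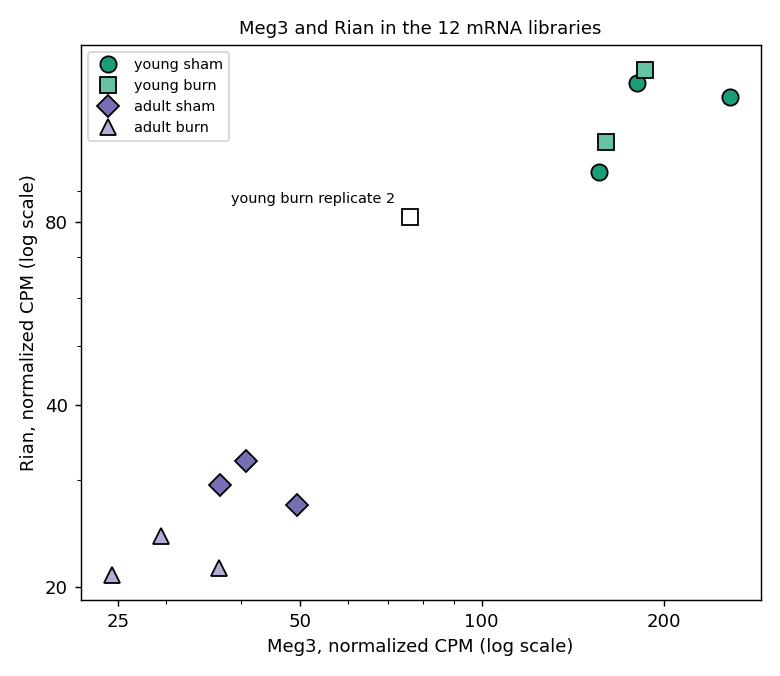
Rian against Meg3 in normalized CPM, both on log axes, 1 point per mRNA library. The 6 young libraries lie above the 6 adult libraries on both axes, and young burn replicate 2, the open square at 76.1 CPM of Meg3 and 81.4 CPM of Rian, is nearest to them.

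As a description over the 12 libraries, the Pearson correlation of log2 CPM was 0.97 between Meg3 and Rian, 0.93 between Dlk1 and Rian, 0.91 between Meg3 and Mirg and 0.85 between Dlk1 and Meg3. These values rest on the age difference that all of them share. Within the 6 young libraries it was 0.83 for Meg3 and Rian and -0.43 for Dlk1 and Meg3, and within the 6 adult libraries 0.64 and -0.15.

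Other rows inside the domain held few reads. Of 110 such rows only 7 had any count, and all 23 snoRNA rows, of which Rian carries several, had none in these poly-A libraries. Among 67 miRNA genes 1 had a count. B830012L14Rik, a noncoding RNA that lies between Rian and Mirg at chr12:109695586-109702587, held 25 young and 7 adult counts, between 1 and 8 per young library and 1 or 2 per adult library, and was not tested. The young libraries made up 48.8% of all mRNA counts.

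Genes beside the domain were counted in the same fits. Of 8 protein-coding genes within 1 Mb before Dlk1, 6 were tested and 0 were called between the sham groups. Of 14 within 1 Mb after Dio3, 10 were tested and 0 called. Over all genes 1.92% were called higher and 1.85% lower, so 0 calls in lists this short is near the general share. An unadjusted p under 0.05 by edgeR was seen for 2 of the 6 and 0 of the 10, and for 20.2% of all genes. Their median log2 fold changes were -0.22 and 0.07, beside 0.01 for all genes. Wdr25, the nearest tested gene before Dlk1, changed by -1.11 ± 0.39 with an adjusted p of 0.126. Ppp2r5c, the nearest after Dio3 and a subunit of protein phosphatase 2A, changed by -0.09 ± 0.11 with an adjusted p of 0.689. Between the burn groups Evl, an actin regulator, was called higher in young at 0.91 ± 0.22 with an adjusted p of 0.0217. Without young burn replicate 2 Evl was called again at 1.04 with an adjusted p of 0.006. Yy1, a zinc finger factor, was then called lower at -0.35 with an adjusted p of 0.0325. Slc25a29, a mitochondrial carrier, was called lower between the sham groups at -0.86 with an adjusted p of 0.0305. Between the burn groups 5.98% of all genes were called higher with 12 libraries and 11.2% with 11. With 11 libraries 6.49% were called lower between the sham groups and 9.54% between the burn groups.

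**Figure D4:**
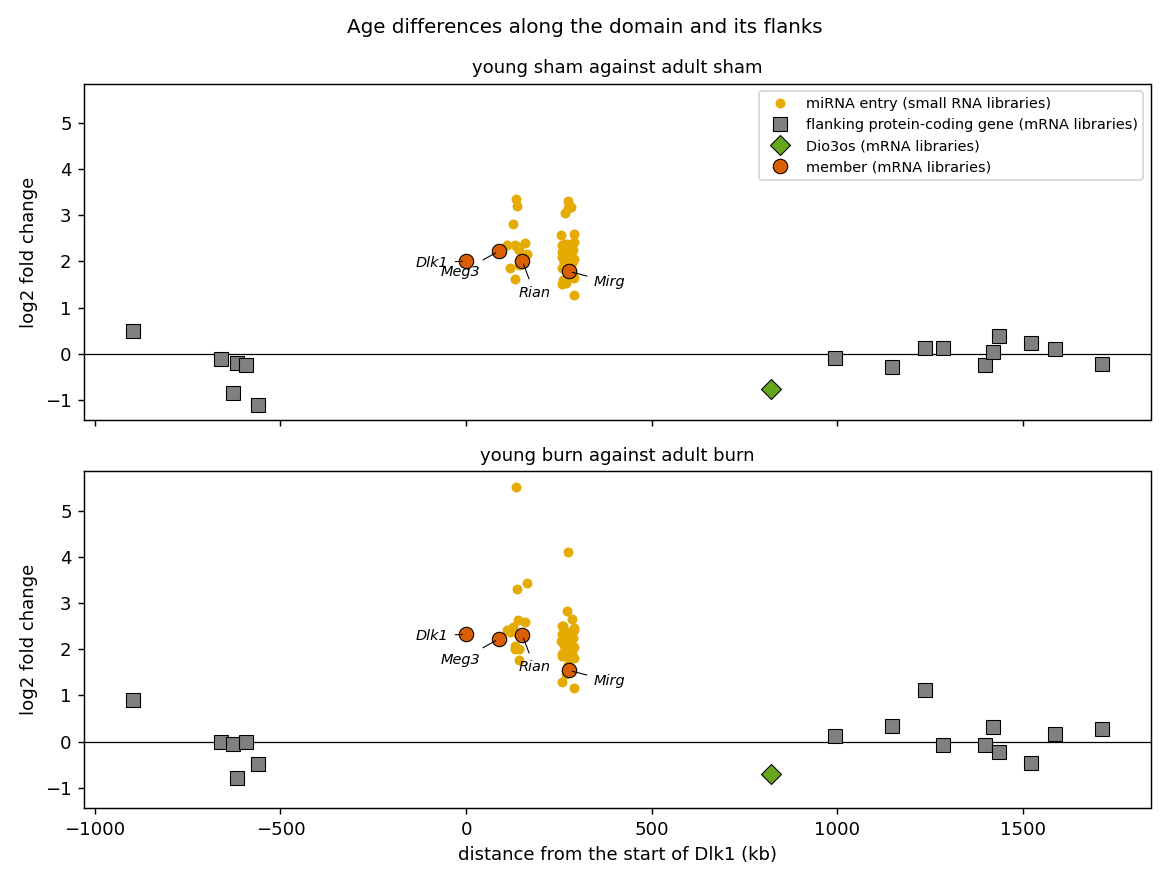
Log2 fold change between ages (vertical axis) against distance from the start of Dlk1 in kb, for young sham against adult sham above and young burn against adult burn below. The 4 tested members and the 46 tested miRNA entries lay above 1 in both panels. Dio3os, near 823 kb, and the 16 flanking genes lay between -1.11 and 0.48 in the upper panel. In the lower panel Hsp90aa1, a flanking gene, also lay above 1, at 1.12, and Evl stood at 0.91.

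The miRNAs of the domain were also higher in young mice, in the small RNA libraries. Of 60 hairpin entries, 46 passed the filter, and edgeR called 46 of these higher in young sham than in adult sham, where it called 30.8% of all 299 entries tested. In young burn against adult burn it called 45 of 46, where it called 29.8% of all entries, and mir-299b, with a log2 fold change of 1.29 and an adjusted p of 0.153, was the exception. Some domain entries passed the filter only through the young libraries, so that their direction was partly set by it. Among them mir-665 stood at 1.69 CPM in adult sham and 0.306 in adult burn, and mir-667 at 1.15 and 2.21. Also among them were mir-299b at 1.39 and 1.57, mir-376a at 3.57 and 3.24 and mir-496a at 3.20 and 1.91. So were mir-679 at 2.69 and 3.26 and mir-770 at 1.84 and 2.57. The numbers of calls and the medians given here include these entries. Outside the domain 46 of 253 tested entries were called higher and 76 lower in young sham, with a median log2 fold change of -0.09, against a median of 2.19 for the domain entries. This split moved with the scaling: 113 of these entries were called higher and 20 lower with library size alone, and 70 higher and 51 lower with TMM factors from the entries outside the domain. The median of all 299 entries was then 0.52 and 0.21, in place of 0.02, and 53.2% and 38.8% of all entries were called higher. Beside the values of the host RNAs, 2.22 for Meg3, 2.01 for Rian and 1.78 for Mirg, the median was 2.35 for the entries from Meg3 to Rtl1, 2.30 for those antisense to Rtl1, 2.29 for those of Rian and 2.13 for the Mirg cluster. As a share of all small RNA counts the domain entries made up between 0.359% and 0.485% in adult libraries and between 2.60% and 3.73% in young ones.

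Summed by place, the entries antisense to Rtl1 were the most abundant, at 14952 ± 2841 CPM in young sham, 16222 ± 2372 in young burn, 3137 ± 267 in adult sham and 3095 ± 83.6 in adult burn. The Mirg cluster followed at 10164 ± 2245, 11671 ± 2213, 1808 ± 306 and 1719 ± 78.6 CPM in the same order. Entries from Meg3 to Rtl1 summed to 711 ± 122, 655 ± 148, 132 ± 22.2 and 135 ± 13.0 CPM. Those of Rian summed to only 289 ± 77.1, 341 ± 48.0, 55.7 ± 10.2 and 52.0 ± 5.60 CPM. Rtl1 itself, opposite to the most abundant miRNAs, was the least abundant member.

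**Figure D5:**
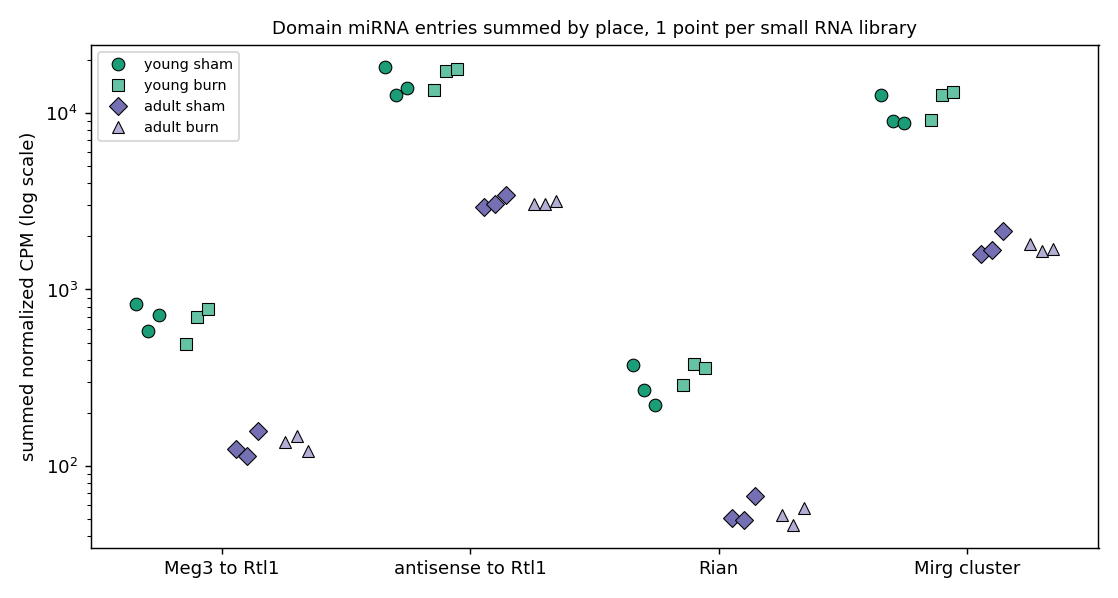
Summed normalized CPM (vertical axis, log scale) of the domain miRNA entries in each small RNA library, by place in the domain; 3 points per group. In each of the 4 places shown the 6 young libraries lay above the 6 adult ones, with group means for the Mirg cluster of 10164 and 11671 CPM in young and 1808 and 1719 CPM in adult mice.

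Among single entries mir-127, which lies opposite to the Rtl1 coding sequence, made up 38.2% of the domain counts in young and 37.5% in adult libraries on average. It was measured at 12192, 7852 and 9288 CPM in young sham, 9418, 12292 and 12074 in young burn, 1849, 1928 and 2163 in adult sham and 1693, 1857 and 1910 in adult burn, and changed by 2.30 ± 0.15 between the sham groups with an adjusted p of 1.28e-09 by edgeR. Its neighbour mir-434 changed by 2.25 ± 0.16. In the cluster before Mirg, mir-411 changed by 1.85 ± 0.15, whereas mir-381 changed by 3.31 ± 0.30 between the sham groups and 4.11 ± 0.31 between the burn groups, and made up between 10.0% and 19.5% of the domain counts in young and between 5.51% and 9.46% in adult libraries, ranges that did not overlap. Of the Rian entries mir-341 changed by 2.40 ± 0.20 and mir-370 by 2.17 ± 0.29, and between Meg3 and Rtl1 mir-337 changed by 2.35 ± 0.21 and mir-493 by 2.80 ± 0.21. The largest change between the sham groups was that of mir-665, 3.34 ± 0.44 at a mean of 8.74 CPM, though this entry passed the filter only through the young libraries. The smallest was that of mir-412, 1.28 ± 0.39. The single entry near Dio3, mir-1247, held 38 counts in all libraries and was not tested.

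No domain miRNA passed the test for burn with the filter on low counts. EdgeR called 0 of 46 domain entries and 0% of all 299 entries in adult burn against adult sham, in young burn against young sham and in the interaction, where 5, 2 and 6 of the 46 had an unadjusted p under 0.05, beside 23, 37 and 36 of all 299. DESeq2 also called 0 domain entries in each. Without the filter on low counts, which tested 756 entries, mir-381 alone of the domain was called in young burn against young sham, at 0.53 with an adjusted p of 0.00887, and in the interaction, at 0.83 with an adjusted p of 0.00411.

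Genes whose pattern over the 12 mRNA libraries was most like that of each member were named by the Pearson correlation of log2 CPM. For Rian they were H19, an imprinted noncoding RNA of chromosome 7, at 0.99, then Kcne1l, Atxn7l3b, Sparc, a collagen-binding matrix protein, and C1qtnf6, down to 0.97. For Meg3 they were Atxn7l3b at 0.98, then Col1a1 and Col1a2, the chains of type I collagen, Itm2a and Tlcd2, down to 0.96. For Dlk1 they were Iffo1 at 0.95, then Plxdc1, Gm49767, Pi4k2b and Mfap2, a microfibril protein, down to 0.93. For Mirg they were Ttc28 at 0.95, then Rbms3, Dpysl2, Gm4841 and Nsmf, down to 0.92. H19 itself changed by 2.52 between the sham groups with an adjusted p of 0.000413, and Col1a1 by 2.22 with an adjusted p of 0.000877. The libraries share their depth and their age groups, and the correlations are given without a test.

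Collagen genes of the fibroblast markers moved with the members. The 8 fibroblast markers summed to between 5858 and 7511 CPM in young and between 2571 and 3443 CPM in adult libraries. Most of this difference came from Col1a1 and Col3a1, with 22842 and 25921 counts in young sham against 5276 and 8347 in adult sham. Dcn held 26341 against 23247 counts. Of the others, Pdgfra, Lum and Pi16 held more counts in young sham and Dpp4 and Ly6a fewer. Col1a1 and Col3a1, the latter with a log2 fold change of 1.74, were the 2 of 8 that were called between the sham groups. Dcn, an abundant proteoglycan of fibroblasts, changed by 0.26 ± 0.14 with an adjusted p of 0.331, and the list had a median of 0.26. Of the 10 satellite cell and myoblast markers, Myog and Mymk, which drive myoblast differentiation and fusion, and Calcr were called higher and Myod1 lower in young sham, at 1.704, 4.35, 1.46 and -1.05. Mymk held 2 counts in adult sham and 2 in adult burn, so it passed the filter only through the young libraries. In muscle fibre markers 1 of 8, Myl1, was called higher, and Kera was the 1 called of 5 tendon markers. No marker of adipocytes, endothelium, Schwann cells, leukocytes or dividing cells was called between the sham groups with 12 libraries, although the median was 0.70 for the 5 tested Schwann cell markers and 1.58 for the 3 tested of the 7 markers of dividing cells, and 0.96 for the tendon list. Since 1.92% of all genes were called higher and 1.85% lower there, 0 calls in lists this short is near the general share. Between the burn groups Col1a1, Col3a1 and Lum of the fibroblast list and Cdh5 and Egfl7 of the 6 endothelial markers were called higher in young. With 11 libraries 3 of the 5 tested Schwann cell markers were called higher in young in each age comparison. Pmp22, a protein of peripheral myelin, was among them in both. The same fit called Egfl7, Rrm2 and the tendon gene Tnmd between the sham groups and 4 endothelial markers between the burn groups. The share of all genes called higher between the burn groups was 5.98% with 12 libraries. With 11 libraries this share was 5.27% between the sham groups and 11.2% between the burn groups. Of the pituitary and chromaffin markers, cells in which Dlk1 is also abundant, Gh, Prl and Dbh had 0 counts in every group and none of the 6 was tested. Chga held 6 counts in young sham, 23 in young burn, 0 in adult sham and 4 in adult burn, Pomc held 6, 6, 2 and 10 in the same order, and Th 1 count in young burn. The part of fibroblasts, myoblasts or other cells in the age difference of the members was not tested.

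Lists of genes that work with the members were counted in the same fits. Of 31 Notch pathway genes, among which Dlk1 acts, 28 were tested and 0 were called between the sham groups, with a median of 0.14 and 6 at an unadjusted p under 0.05, as were 20.2% of all genes. The most abundant tested members, Adam10, a protease that cuts Notch receptors, and Hes1, a Notch target, changed by 0.42 and 0.06. Over all genes 1.92% were called higher between the sham groups and 5.98% between the burn groups. Between the burn groups 3 of the list were called higher, Adam10 at 0.60 with an adjusted p of 0.0102, Adam17 at 0.49 with an adjusted p of 0.0339, and Dll4, a Notch ligand, at 0.79 with an adjusted p just under the threshold. Without young burn replicate 2 the counts were 3 and 8, all higher in young, while 5.27% and 11.2% of all genes were called higher.

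Of 17 thyroid hormone genes, among which Dio3 acts, 15 were tested and Rxra, a receptor partner, was called lower in young sham at -0.75 ± 0.15 with an adjusted p of 0.0153. Klf9, a thyroid hormone target and the most abundant gene of the list, changed by 0.14 with an adjusted p of 0.718. Between the burn groups 4 were called lower, Rxra, Hr at -1.30, Thrb, a thyroid hormone receptor, at -0.58, and Klf9 at -0.71, and Dio2, the activating deiodinase, stood at 0.52 with an adjusted p of 0.229. Of all genes 1.85% were called lower between the sham groups and 4.84% between the burn groups. With 11 libraries, where these shares were 6.49% and 9.54%, 2 genes of the list were called lower between the sham groups and 5 between the burn groups, and Dio2 was called higher between the burn groups at 0.77 with an adjusted p of 0.0399.

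Of 17 imprint and Polycomb factors 14 were tested. Tet2, an enzyme that oxidizes methylated cytosine, was called higher in young sham at 0.84 ± 0.16 with an adjusted p of 0.0144, and Tet1, of the same family, in young burn against adult burn at 2.06 ± 0.42 with an adjusted p of 0.0101. The median was 0.13 between the sham groups and 0.19 between the burn groups, against 0.01 and 0.02 over all genes. In the same fit 1.92% of all genes were called higher and 1.85% lower between the sham groups. Between the burn groups these shares were 5.98% and 4.84%. With 11 libraries they were 5.27% and 6.49% between the sham groups and 11.2% and 9.54% between the burn groups. With 11 libraries 15 were tested, and between the burn groups Tet1, Tet3, Dnmt3a and Jarid2 were called higher at 2.31, 0.41, 0.62 and 0.50 and Trim28 and Eed lower at -0.34 and -0.54. None of the 3 tested MEF2 factors was called with 12 libraries, Mef2c standing at 0.22 and Mef2d at -0.56 with an adjusted p of 0.0634, but without young burn replicate 2 Mef2d was called lower in either age comparison. Of 9 tested genes that process miRNAs 0 were called in either age comparison, with a median of 0.00 between the sham groups, and Ago2 and Dicer1 changed by 0.06 and -0.06. An unadjusted p under 0.05 by edgeR was seen for 0 of the 9 between the sham groups and 3 between the burn groups. The shares of all genes under it were 20.2% and 28.4%.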

How the data were processed

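The gene counts and the miRNA counts were used as deposited by the authors, who per the labels aligned mRNA reads with STAR (2.7.5c) to GRCm38 and counted them against Gencode M25, and trimmed small RNA reads with mirDeep2 and counted them per hairpin with featureCounts (2.0.1). No source used here says how multimapping reads were treated. Positions came from Gencode M21, which 260 of the 55401 gene identifiers did not match.

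Counts were fitted with edgeR (4.0.16, R 4.3.3), using 1 mean for each of the 4 groups over all 12 libraries of an assay, TMM factors, filterByExpr (minimum count 10, minimum total 15), the quasi-likelihood test and Benjamini-Hochberg adjustment over all features tested, and a change was called at an adjusted p under 0.05. Log2 CPM used a prior count of 2. Members under the filter were compared by exact permutation of log2(CPM + 0.5). Intervals of count ratios are exact at 95%. Depth was 4392605 to 5688512 counts per mRNA library and 1704531 to 3149396 per small RNA library, and no 2 libraries were identical.

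The members and lists were chosen with earlier results of these data known, and the promoter motifs after the windows had been seen. By the naming rule the text gives all members, the 5 genes most like each tested member, up to 4 called genes of each list (or the 2 most abundant where fewer than 2 were called), the nearest tested and any called flanking genes, and for each place in the domain the 2 most abundant miRNAs and the largest and smallest changes. Other genes of the lists are named for calls in a further comparison, after their values were seen. Alternatives were DESeq2 (1.42.0), library size alone, no filter, fewer libraries, TMM from entries outside the domain, summed copies and the replicate number as a block. The hairpin entries mir-1906 and mir-496b were left out of the domain, since their names could not be placed there alone. Single values of some marker genes are not reported here. Figures were drawn with matplotlib (3.10.9).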

Additional observations from a re-analysis of the deposited data

How the results depend on the processing

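Of 140 alternative values of the counts of calls and of the tests of Rtl1 and Dio3, 138 were scored as the same. A count of calls was scored so when it lay close to the main count, and 3 members in place of 4 was. Such a count has no direction to reverse. The differences of Rtl1 and Dio3 kept their sign and their side of the threshold. Without a filter on low counts, 1 domain miRNA entry in place of 0 was called in young burn against young sham and 1 in the interaction, in both mir-381. Leaving out 1 replicate at a time gave 3 to 4 members called in each age comparison and 0 to 0 in the burn comparisons and the interaction. It gave 45 to 47 miRNA entries in young sham against adult sham, 44 to 46 in young burn against adult burn and 0 to 0 otherwise. Of 247 alternative log2 fold changes of members 235 kept their side of the threshold, and the 12 that lost the call were all of Mirg, in fits without 1 of the compared libraries or, between the burn groups, with only the libraries of these groups. The call of mir-412 was lost without adult sham replicate 3 (adjusted p 0.0538) and, between the burn groups, without adult burn replicate 1 (0.0536). Rtl1 was called by edgeR between the burn groups when no filter was applied.

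With the replicate block 4 and 4 members were called in the age comparisons and 0 in the others, and 46 and 45 miRNA entries. Replicate numbers did not pair the libraries: deviations of same-numbered libraries correlated between -0.197 and 0.153 in mRNA, with 3 of 18 pairs over 0.1, and 4 of 12 libraries correlated best with their own number. The number of all genes called higher in young sham than in adult sham depended strongly on the fit, from 54 without adult sham replicate 2 to 667 without young burn replicate 2, against 238, with 186 under the block, 476 with no filter and 151 by library size alone, where 445 in place of 229 were called lower and the median of all genes was -0.13. Between the burn groups library size alone called 999 higher and 325 lower in place of 742 and 601, with a median of 0.12. In young burn against young sham it called 615 genes in place of 8, and 1095 were called with no filter, in each case 0 members. Counts of Rtl1, Dio3 and Mirg limit what can be seen of them.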

Other observations

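Within an age, a mouse's level of a host RNA was set against the summed level of its miRNAs in 6 relations over 6 mice each (Meg3 with all domain entries, Rian with its entries, and Mirg with the Mirg cluster, which begins before the gene). Pearson's r was -0.339 for Meg3 in young and 0.513 in adult mice, -0.0629 and 0.0639 for Rian, and -0.168 and -0.22 for Mirg, and Spearman's rho was 0.314 and 0.0857, -0.0857 and 0.0857, and 0.486 and -0.2. None passed, with exact permutation p adjusted over the 6 relations of 0.957 for each r and 0.919 for each rho. Leaving out the 2 mice farthest from the median turned r for Meg3 to 0.987 in young and -0.721 in adult mice, and for Mirg in young mice to 0.915, so these values change with which mice are included.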
